A study of Ovis aries with 3 samples.

Results

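*DLK1* (delta like non-canonical Notch ligand 1, listed as ENSOARG00020018436) was examined as 1 of 26478 genes counted in single cells of sheep embryos. It was chosen on measured values of these same cells: it was among the leading genes of a nephric-like cluster, and its level differed between cell groups, stages and breeds. The levels below are therefore a description, and no test was made of them. The study's files hold 3 libraries, 1 each for embryonic day 16 of Hu sheep (E16 HS), day 19 of Hu sheep (E19 HS) and day 19 of Hulunbuir short-tailed sheep (E19 HSTS). All came from whole embryos dissociated with collagenase and run on the 10x Genomics 3′ platform, and counts are of unique molecular identifiers (UMIs), each standing for 1 captured transcript. By the study's genotyping, the HS animals were homozygous for the wild-type *T* allele and the HSTS animals for a missense allele. *T* encodes brachyury, a transcription factor of the notochord and tail bud. The breeds also differ in the rest of their genomes, so that allele and breed cannot be told apart. The E16 HS library is described with 3 embryos in the design text and with 1 in its label, which was not resolved, and E16 HSTS cells were not analysed here.

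*DLK1* encodes a transmembrane protein with EGF-like repeats that is related to the ligands of NOTCH receptors but lacks their DSL domain. Its outer part can be shed by the protease ADAM17, and it is known for holding precursor cells, adipocyte precursors among them, in an undifferentiated state. It is abundant in many fetal tissues and restricted to few after birth. The gene is imprinted and expressed from the paternal copy, and in sheep the callipyge muscle trait maps to its domain. Which parental copy gave the transcripts was not analysed here.

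The kept cells numbered 11329 in E16 HS, 10629 in E19 HS and 9618 in E19 HSTS, with medians of 9046, 6900 and 8675 UMIs per cell. Between 31 and 37 kept barcodes were shared by any 2 libraries. Erythroid-like cells held 17.7% of the cells of E16 HS, 13.4% of E19 HS and 27.4% of E19 HSTS, and 24.5%, 28.8% and 45.6% of their UMIs. With 1 library per group, no spread between replicates exists, and every interval given here is exact, at the 95% level, and covers counting error only.

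*DLK1* was counted with 6581 UMIs in E16 HS, 12075 in E19 HS and 7758 in E19 HSTS. Per 1000000 UMIs of the library (CPM) the level was 58.1 (56.7 to 59.6) in E16 HS, 136 (134 to 139) in E19 HS and 77.9 (76.2 to 79.7) in E19 HSTS. E19 HS was thus the highest of the 3 and E16 HS the lowest, and no pair of intervals overlapped. At least 1 *DLK1* UMI was found in 1001 cells of E16 HS (8.84%), 1146 of E19 HS (10.8%) and 836 of E19 HSTS (8.69%). Since deeper cells show a transcript more often, each cell was thinned to 3000 UMIs. The share of positive cells was then 5.80% (5.35 to 6.28) in E16 HS, 8.69% (8.13 to 9.28) in E19 HS and 6.21% (5.71 to 6.75) in E19 HSTS, after 1317, 1345 and 1106 shallower cells had been left out. The order of the libraries was the same as for the level, and only the intervals of E16 HS and E19 HSTS overlapped.

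The transcripts were concentrated in few cells. The 116 highest cells of E16 HS, 157 of E19 HS and 96 of E19 HSTS held at least as many *DLK1* UMIs as all other cells of their library. A positive cell held 6.57, 10.5 and 9.28 UMIs on average but only 2, 5 and 3 at the median, and the highest single cells held 61, 150 and 88. Levels summed over a library or a cell group mix both properties, so fewer positive cells and less RNA per positive cell cannot be told apart in them.

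To place these cells, the 3 libraries were clustered together with *DLK1* itself left out of the genes that shaped the clusters. Of 33 clusters, 26 were named from marker lists and 7 were left unnamed, and each name means resemblance only. Clusters that took the same name were joined into a class. Values are given for clusters with at least 20 cells in a library.

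*DLK1* was highest in cluster 13, which was led by *NRK*, *CALB1*, *LHX1*, *SLC12A1*, *EMX2* and *CDKN1C* and named nephric-like, after the embryonic kidney and its ducts. LHX1 and EMX2 are transcription factors of the nephric lineage and SLC12A1 is a salt transporter of the kidney tubule. Of the 12 nephric markers, 7 were found in at least 10% of its cells. The cluster held 378 cells of E16 HS, 445 of E19 HS and 383 of E19 HSTS, and its *DLK1* level was 706 (683 to 730.4), 1315 (1278 to 1352) and 1133 (1100.4 to 1167) CPM. In each library its interval lay clear of that of the next cluster. Even here the cells were uneven. The median cell stood at 435 CPM in E16 HS, 710.4 in E19 HS and 630.1 in E19 HSTS, the upper quartile at 1151, 2186 and 1694, and the lower quartile at 38.3, 0 and 129.8.

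A smaller cluster, 30, was also named nephric-like and was led by genes that include *SLC34A1*, *CDH16* and *LRP2*, genes of the proximal tubule among them. Its *DLK1* level was 89.4 CPM (70.8 to 111) in E19 HS and 61.8 (48.1 to 78.2) in E19 HSTS, and it held no kept cell of E16 HS. *DLK1* was therefore far from even across the nephric-like cells, and cluster 13 carried nearly all of it. Both clusters together held 3.34%, 4.88% and 4.77% of the cells of E16 HS, E19 HS and E19 HSTS but 51.8%, 41.4% and 59.4% of the *DLK1* UMIs. After thinning, 62.6% (57.4 to 67.5), 58.9% (54.4 to 63.2) and 57.4% (52.7 to 62.0) of them were positive, with 75.4%, 65.5% and 69.9% before it.

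**Figure D1:**
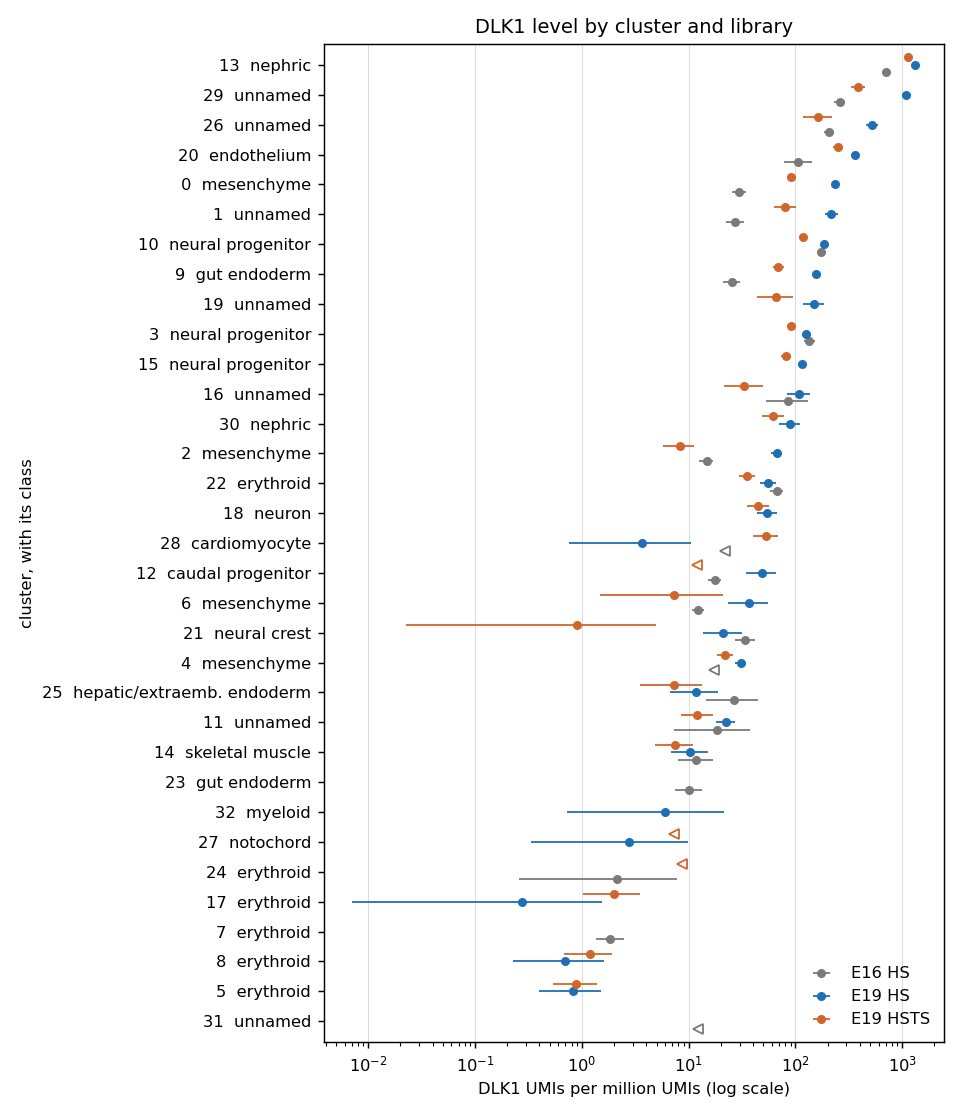
DLK1 level in each cluster (vertical axis, with its class) on a log axis of CPM, for E16 HS (grey), E19 HS (blue) and E19 HSTS (orange). Points are levels with exact 95% intervals for counting error, open triangles mark the upper bound where no DLK1 UMI was counted, and cluster 13 stands highest in all 3 libraries at 706, 1315 and 1133 CPM.

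Within cluster 13 the level moved with single markers. GATA3, a transcription factor kept on in the nephric duct, was found in 31, 35 and 45 cells of E16 HS, E19 HS and E19 HSTS. In these cells *DLK1* stood at 386 CPM (332 to 447), 571 (498 to 651) and 373 (327 to 424), against 740.3 (715 to 766), 1401 (1361 to 1442) and 1272 (1234 to 1311) in the others. In each library the cells with *GATA3* were the lower and the intervals did not overlap. For *CDH16*, a cadherin of mature tubules, E19 HS had 936 CPM (875 to 999.6) in cells with it and 1442 (1398 to 1488) without, and E19 HSTS had 978 (927 to 1032) and 1216 (1174 to 1259). The opposite held for *LHX1* in E16 HS, where cells with it stood at 952 CPM (915 to 991) and those without at 431 (405 to 459). The gap for *LHX1* was narrower in E19 HS, at 1429 (1367 to 1493) and 1246 (1201 to 1292), and in E19 HSTS the intervals of 1169 (1122 to 1218) and 1097 (1052 to 1144) overlapped. *WT1*, a regulator of the nephrogenic mesenchyme and the podocyte, split the cluster less than *GATA3* and *LHX1* did in E16 HS and E19 HS. In E19 HSTS it split the cluster more than *LHX1* did. Cells with *WT1* had 652, 1264 and 942 CPM and those without had 727, 1321 and 1151. The intervals of the pair overlapped in E19 HS and lay apart in the other libraries. Cells of cluster 13 with 5 or more *DLK1* UMIs, 643 in all, were also set against the 287 cells with none, at medians of 10118 and 8262 UMIs per cell. *CCND1*, a cyclin of cell cycle entry, stood at 223 and 112 CPM in E16 HS, 224 and 42.7 in E19 HS and 229 and 87.7 in E19 HSTS. *NNAT*, another imprinted gene, stood at 60.8 and 12.6, 56.2 and 10.4, and 55.8 and 8.77 CPM. *SLC12A1* stood at 95.7 and 2.31 CPM in E19 HS and at 161 and 16.1 in E19 HSTS, with 2 UMIs in all in E16 HS. In each library, apart from *SLC12A1* in E16 HS, these genes were higher in the cells with much *DLK1*. The genes of such cells were picked after their values were seen.

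Next to cluster 13 in E16 HS and E19 HS stood 2 small unnamed clusters, and in E19 HSTS the endothelium-like cluster came between them. Cluster 29, led by *TAC3*, *SPP1*, *KRT19* and *WFDC2*, had 259 CPM (231 to 290.0) in E16 HS, 1094 (986 to 1211) in E19 HS and 384 (328 to 446) in E19 HSTS, in 102, 32 and 35 cells. One cell with 150 UMIs gave 40.0% of its *DLK1* in E19 HS, and that cell was the highest of all kept cells. Cluster 26, led by *C1QA*, *PTPRO*, *TCF21*, *PTPRQ* and *CDKN1C*, had 206 CPM (184 to 231), 524 (462 to 592) and 163 (118 to 219) in 136, 72 and 34 cells. PTPRO and TCF21 are known from podocytes of the kidney, but the cluster met the naming rule of no list. Both clusters had their highest level in E19 HS, by margins wider than their intervals.

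In endothelium-like cells, which line the vessels and were led by *PECAM1*, *PLVAP* and *KDR*, the level was 106 CPM (77.6 to 142) in E16 HS, 358 (333 to 384) in E19 HS and 250.4 (226 to 277) in E19 HSTS. The share of positive cells after thinning was 17.0% (7.65 to 30.8), 30.6% (25.1 to 36.5) and 30.4% (23.3 to 38.2). It was taken on the 47, 265 and 158 cells deep enough, of 52, 285 and 170. The E19 libraries thus lay apart in the level, while the intervals of all 3 shares overlapped.

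Neural-progenitor-like cells (*SOX2*, *PAX6*) had 160.3 CPM (151 to 170.3) in E16 HS, 137 (132 to 143) in E19 HS and 96.6 (91.1 to 102) in E19 HSTS. Only 8.05%, 5.37% and 3.42% of them were positive after thinning. The class is large, with 753, 2188 and 1419 cells, and gave 15.9%, 19.3% and 15.0% of the *DLK1* UMIs. The order of the 2 stages depended on how the cells were named. Cells picked by at least 3 neural progenitor markers had 78.7 CPM (69.0 to 89.4) in E16 HS and 109 (102 to 117) in E19 HS, the opposite order, and integration of the libraries by RPCA gave 131 (123 to 139) and 139 (134 to 145). Neuron-like cells had 54.2 CPM in E19 HS and 45.0 in E19 HSTS, with overlapping intervals. Without the cells that carried *SIX6*, a gene described further on, the neuron-like level was 24.4 CPM in E19 HS and 45.0 in E19 HSTS, a ratio of 1.84 (1.23 to 2.81). This left out only 2 neuron-like cells of E19 HS and none of E19 HSTS. Of the 83 neuron-like UMIs of E19 HS, 45 lay in a single cell. In neural-crest-like cells the level was 33.7 CPM (26.9 to 41.7) in E16 HS, 21.1 (13.5 to 31.4) in E19 HS and 0.892 (0.0226 to 4.97) in E19 HSTS, where a single UMI was counted in 115 cells. One cell gave 21 of the 24 UMIs of E19 HS, and at a resolution of 0.25, where the class held 132 cells, the E19 HS level was 2.74 CPM (0.565 to 8.01).

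Mesenchyme-like cells had 15.6 CPM (14.4 to 16.8) in E16 HS, 102 (97.3 to 107) in E19 HS and 37.1 (34.2 to 40.1) in E19 HSTS, and 2.87%, 6.36% and 3.73% were positive after thinning. Different clusters made up the class: clusters 6 and 2 held most of it in E16 HS, and clusters 0 and 4 in both E19 libraries. Cluster 0, led by *POSTN*, *TAGLN* and *ACTA2*, was the highest of them, at 29.8 CPM (25.6 to 34.4), 236 (224 to 250) and 91.4 (82.8 to 101). Cluster 6, which carried the fibroblast genes *COL1A1*, *DCN* and *LUM*, was low in E16 HS, at 12.2 CPM (10.8 to 13.8) in 1564 cells. Within cluster 0 the 109 cells with 5 or more *DLK1* UMIs held more of the smooth muscle actins, *ACTA2* at 925 CPM against 59.1 in the 2172 cells without *DLK1* and *ACTG2* at 173 against 14.0, and more *AGTR1*, an angiotensin receptor, at 79.0 against 2.27. Their medians were 5316 and 6137 UMIs per cell. The libraries were pooled here, with 12, 74 and 23 of the 109 cells in E16 HS, E19 HS and E19 HSTS. These gaps are therefore mixed with stage and breed.

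Gut-endoderm-like cells (*CLDN7*, *EPCAM*, *KRT7*) had 17.5 CPM (14.9 to 20.4) in E16 HS, 154 (143 to 166) in E19 HS and 68.7 (60.5 to 77.6) in E19 HSTS, and 2.45%, 7.69% and 5.63% were positive after thinning. In cluster 23, also gut-endoderm-like, 332 cells of E16 HS had 9.99 CPM, and the E19 libraries held fewer than 20 cells of it each. Of the 11 gut markers, 3 were found in at least 10% of its cells, and 4 in those of cluster 9, the rest of the class. The transcription factors of the gut list, *FOXA2*, *SOX17*, *PDX1* and *CDX2* among them, were among the leading genes of neither cluster. Cells like the liver and extraembryonic endoderm, with the plasma protein genes *AFP*, *APOA2* and *FGG*, were low, at 26.6 CPM (14.5 to 44.6), 11.6 (6.63 to 18.8) and 7.23 (3.47 to 13.3). *DLK1* is otherwise known as a marker of hepatoblasts, and the counts behind these values were only 14, 16 and 10 UMIs.

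In skeletal-muscle-like cells (*KLHL41*, *MYF6*), the tissue of the callipyge trait, *DLK1* was near the bottom of the range. The level was 11.8 CPM (8.01 to 16.7) in E16 HS, 10.3 (6.82 to 15.1) in E19 HS and 7.44 (4.81 to 11.0) in E19 HSTS, from 31, 27 and 25 UMIs in 378, 357 and 421 cells. The share of positive cells after thinning was 1.08% (0.296 to 2.75), 2.34% (1.02 to 4.56) and 0.995% (0.272 to 2.53). All intervals overlapped between libraries, so no difference by stage or breed was detectable at this depth. One cell gave 23 of the 31 UMIs of E16 HS. Without the highest cell of each library the level was 3.06 CPM in E16 HS and 7.33 in E19 HS, a ratio of 2.39 (1.00 to 6.32), and without the highest doublet scores it was 3.09 (1.35 to 7.92). With the stricter filter on cells the ratio of E19 HSTS over E19 HS was 0.468 (0.236 to 0.900). The muscle cluster had only 3 of 10 markers in at least 10% of its cells and also had *PAX3* and *MEOX1*, genes of the somite, among its leading genes. No cluster was named somite-like at the resolution used. With RPCA integration a somite-like group had 12.5 CPM (8.95 to 17.1) in E16 HS, 9.35 (5.86 to 14.2) in E19 HS and 3.35 (1.45 to 6.61) in E19 HSTS, in 334, 291 and 266 cells. Cells that carried at least 3 of the somite markers at once had 2.26 CPM (0.466 to 6.60) in E16 HS, 0 (up to 7.44) in E19 HS and 0.913 (0.0231 to 5.09) in E19 HSTS, in 123, 59 and 117 cells.

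Caudal-progenitor-like cells of the tail end had 17.5 CPM in E16 HS and 48.2 in E19 HS, where 1 of 114 cells gave 28 of the 39 UMIs, and no *DLK1* UMI in the 37 cells of E19 HSTS, which allows up to 11.9 CPM. Notochord-like cells had 2 UMIs in E19 HS (2.73 CPM) and none in E19 HSTS. Cardiomyocyte-like cells had none in 28 cells of E16 HS, 3 UMIs in E19 HS and 57 in E19 HSTS, of which 34 came from 1 cell.

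Erythroid-like cells were taken as the background for RNA set free during dissociation. They had 8.33 CPM (7.29 to 9.48) in E16 HS, 5.87 (4.97 to 6.89) in E19 HS and 4.23 (3.65 to 4.87) in E19 HSTS, and 0.832%, 0.922% and 0.735% were positive after thinning. Most of these UMIs lay in cluster 22, at 66.7, 55.1 and 35.3 CPM, whose cells had the highest doublet scores. The other erythroid-like clusters stood between 0.278 and 2.15 CPM where *DLK1* was counted. Without cluster 22 the erythroid-like level was 1.84 CPM (1.35 to 2.46), 0.692 (0.396 to 1.12) and 1.14 (0.836 to 1.51), and 0.448% (0.194 to 0.882), 0.309% (0.0842 to 0.789) and 0.378% (0.173 to 0.717) were positive after thinning. The share in muscle-like cells overlapped that of all erythroid-like cells in each library. Set against the erythroid-like cells without cluster 22, it lay above in E19 HS and overlapped in E16 HS and E19 HSTS. The muscle-like level lay above theirs in each library, but in E16 HS 1 cell gave 23 of the 31 muscle-like UMIs. These erythroid-like cells were deeper, at medians of 13657, 17283 and 17279 UMIs against 6627, 6573 and 7559 in muscle-like cells. A given count of free RNA per cell weighs less in deeper cells, also after thinning. A background from cells of like depth was not tested. With RPCA integration the muscle-like level of E16 HS was 3.68 CPM (1.48 to 7.58), which overlapped the erythroid-like 1.84. The nephric-like, endothelium-like, neural-progenitor-like, mesenchyme-like and gut-endoderm-like shares stood above those of all erythroid-like cells in each library. Without the *SIX6* cells, the neural-progenitor-like share of E19 HSTS was 1.71% (1.09 to 2.56), which overlapped. The gut-endoderm-like shares then overlapped in E16 HS, at 2.20% (1.28 to 3.49), and in E19 HS, at 2.85% (1.53 to 4.83).

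Nephric markers came first when cells were picked by single markers without clusters. Since *DLK1* was chosen for leading a nephric-like cluster of these same cells, this is a description and no separate support. Over the cells with at least 1 UMI of a marker, the median *DLK1* level across the nephric markers was 196 CPM in E16 HS, 375 in E19 HS and 291 in E19 HSTS, the highest of the 17 lists in each library. The medians were 78.4, 341 and 219.6 across endothelial markers, 51.5, 349 and 238 across gut markers, 66.2, 86.9 and 88.4 across neural progenitor markers and 40.0, 112 and 52.9 across mesenchymal markers. The somite markers gave 42.4, 63.8 and 28.0 and the skeletal muscle markers 49.2, 35.5 and 29.9. Lists that named no cluster, or a single small one, gave 13.3, 117 and 63.1 for the lateral plate, 42.5, 334 and 163 for the surface ectoderm and 64.5, 14.9 and 116 for myeloid cells, with 3 to 9 markers behind each. Erythroid markers gave 15.3, 8.64 and 6.36. Of these, the somite and muscle medians stood above the levels of the muscle-like cluster.

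**Figure D2:**
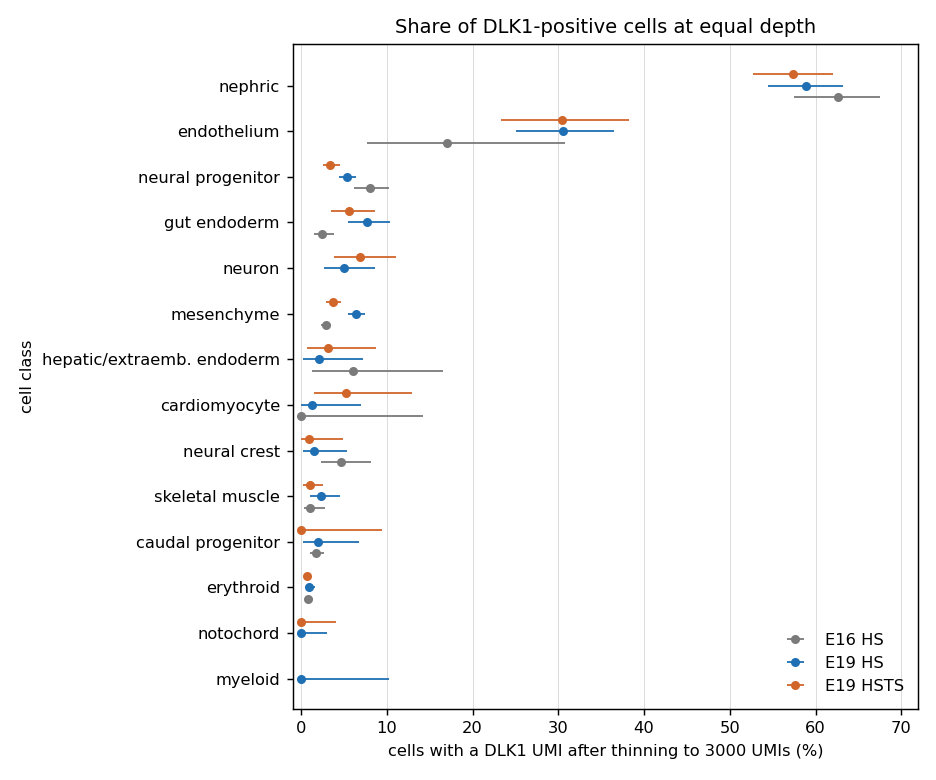
Share of cells with at least 1 DLK1 UMI (percent, horizontal axis) in each named class after thinning every cell to 3000 UMIs, for E16 HS (grey), E19 HS (blue) and E19 HSTS (orange), with exact binomial 95% intervals. Nephric-like cells reach 57.4% to 62.6%, endothelium-like cells 17.0% to 30.6%, and erythroid-like cells stay below 1%.

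A small set of cells, most of them outside the nephric-like clusters, stood above the level of cluster 13 in each library. Among neural-progenitor-like and gut-endoderm-like cells, the gene with the largest excess in cells with 5 or more *DLK1* UMIs over cells without any was *SIX6*, a homeobox gene of the eye field, hypothalamus and pituitary. It was chosen after its values were seen. Cells with at least 1 *SIX6* UMI numbered 27 in E16 HS, 137 in E19 HS and 56 in E19 HSTS. Their *DLK1* level was 2101 CPM (1925 to 2288), 1859 (1788 to 1931) and 1392 (1302 to 1486), against 53.6, 109 and 69.4 in all cells without it. After thinning, 80.0% (59.3 to 93.2), 73.4% (64.7 to 80.9) and 63.0% (48.7 to 75.7) of them were positive for *DLK1*, against 5.62%, 7.82% and 5.85% of the cells without. They were 0.238%, 1.29% and 0.582% of the cells and held 8.04%, 21.5% and 11.5% of the *DLK1* UMIs.

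Most of the *SIX6* cells were neural-progenitor-like, with 17, 66 and 34 cells, or gut-endoderm-like, with 3, 38 and 15. In neural-progenitor-like cells *DLK1* stood at 2335 CPM with *SIX6* and 108 without in E16 HS, at 2235 and 48.0 in E19 HS and at 1763 and 43.5 in E19 HSTS. In gut-endoderm-like cells it stood at 1458 and 13.3 in E16 HS, 1286 and 24.7 in E19 HS and 1168 and 11.4 in E19 HSTS. *SIX6* had been picked for its excess in the *DLK1*-rich cells of these same classes. That the 2 levels were far apart follows from this choice and is no separate support. Without the *SIX6* cells, the gut-endoderm-like share of positive cells was 2.20%, 2.85% and 3.24% after thinning. The gut-endoderm-like cells with 5 or more *DLK1* UMIs, 48 in all, also held *HESX1* (83.7 against 1.00 CPM in the 1536 cells without *DLK1*) and *SOX2* (237 against 70.8), transcription factors known from the pituitary anlage among other tissues. In neural-progenitor-like cells the same comparison, of 164 against 4058 cells, gave *PMEL*, a gene of pigment cells, at 163 against 10.8 CPM. Both comparisons pooled the libraries, so their gaps are mixed with stage and breed. E16 HS, E19 HS and E19 HSTS held 8, 32 and 8 of the 48 cells, and 50, 75 and 39 of the 164. The marker *NKX2-1*, which the gut list holds and which is also a gene of the ventral forebrain, was found in 28 cells of E19 HS, and these had 2261 CPM of *DLK1* (2078 to 2455).

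**Figure D3:**
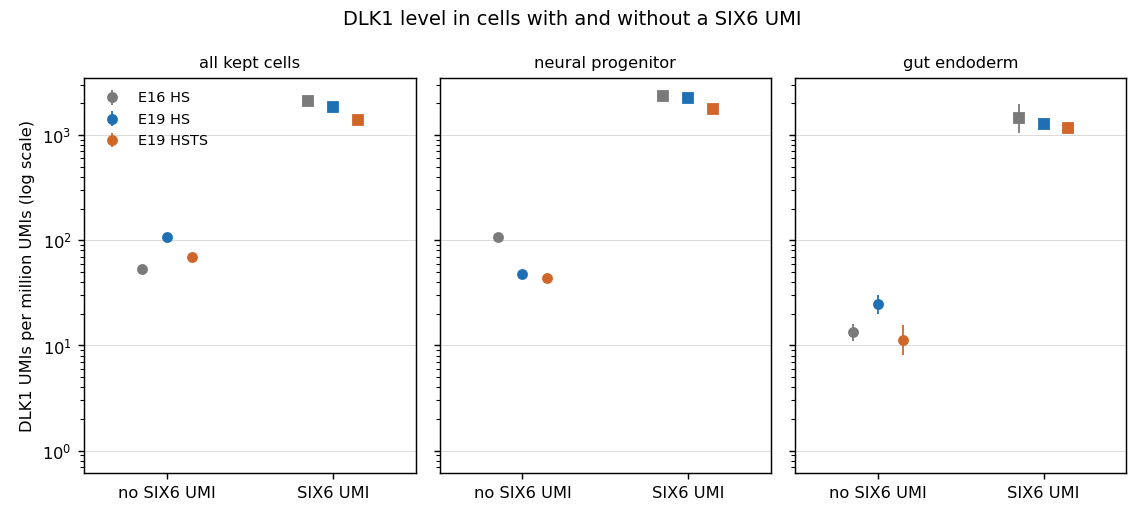
DLK1 level on a log axis of CPM in cells without (circles) and with (squares) at least 1 SIX6 UMI, in all kept cells, neural-progenitor-like cells and gut-endoderm-like cells, for E16 HS (grey), E19 HS (blue) and E19 HSTS (orange) with exact 95% intervals. Cells with SIX6 lie between 1168 and 2335 CPM and those without between 11.4 and 109 CPM.

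The comparison by stage was made within Hu sheep. *DLK1* in E19 HS was 2.34 times that in E16 HS (2.27 to 2.41). Among 12580 genes with at least 50 UMIs in these 2 libraries together, 6.38% were at least 2-fold higher in E19 HS, the median ratio was 0.854, and 4.73% lay at least as far up as *DLK1*. The ratio differed widely by cell group. Of 20 clusters with at least 20 cells in both libraries, 11 had an interval above 1, 2 below 1 and 7 held 1. Of the 20, mesenchyme-like cluster 4 and cardiomyocyte-like cluster 28 had no *DLK1* UMI in E16 HS and entered by their lower bound alone. The median ratio of the other 18 was 2.20, and 10 of them had an interval above 1. Among clusters with *DLK1* in both libraries, mesenchyme-like cluster 0 had the largest, 7.94 (6.79 to 9.34), and gut-endoderm-like cluster 9 had 6.17 (5.06 to 7.56). The ratio was 3.36 (2.49 to 4.65) in endothelium-like cells and 1.86 (1.78 to 1.95) in nephric-like cluster 13. In neural-progenitor-like clusters 10 and 3 it was 1.08 (0.974 to 1.19) and 0.931 (0.814 to 1.07), and in the muscle cluster 0.877 (0.504 to 1.52). Cells with *SIX6* had a ratio of 0.885 (0.805 to 0.973), and such cells were more numerous in E19 HS. They weighed on several of these ratios. *SIX6* was picked for its excess in *DLK1*-rich cells, so leaving its cells out lowers the levels by that choice, and more so in E19 HS. The ratios without them are a description and no separate result on the remaining cells. In cluster 9 of E19 HS, 590 of the 689 *DLK1* UMIs lay in 38 *SIX6* cells, and without such cells the levels were 16.9 CPM in E16 HS and 25.2 in E19 HS, a ratio of 1.49 (1.09 to 2.03). Without them clusters 10 and 3 had 0.322 (0.268 to 0.385) and 0.688 (0.571 to 0.830), and all neural-progenitor-like cells had 108 and 48.0 CPM, a ratio of 0.446 (0.402 to 0.495). Mesenchyme-like cluster 0 moved little, to 7.98 (6.79 to 9.43). Over the 18 clusters the median was then 1.40, with 9 intervals above 1 and 4 below.

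The clusters of the 2 stages were of unequal size. With the classes held at equal shares of UMIs in both libraries, the stage ratio was 1.94, over the 16 classes that both held. Without the nephric-like class the levels were 29.3 CPM in E16 HS and 84.1 in E19 HS, a ratio of 2.87 (2.75 to 2.99), and within that class it was 1.53 (1.47 to 1.60). In cells picked by at least 3 nephric markers the levels were 829 CPM (784 to 875) in E16 HS, 842 (798 to 889) in E19 HS and 809 (772 to 848) in E19 HSTS, so that the ratio was 1.02 (0.941 to 1.10) by stage and 0.961 (0.895 to 1.03) by breed, against 0.832 (0.799 to 0.866) by breed in the class. Without the erythroid-like class the ratio was 2.54 (2.46 to 2.62), and without the *SIX6* cells 2.03 (1.96 to 2.09).

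The comparison by breed was made at E19. *DLK1* in E19 HSTS was 0.573 times that in E19 HS (0.556 to 0.589), which is 1.75-fold lower (1.70 to 1.80). Of 12439 genes, 2.28% were at least 2-fold lower in E19 HSTS, which *DLK1* was not, the median ratio was 0.963, and 3.78% lay at least as far down as *DLK1*. Of 28 clusters, 20 had an interval below 1, 2 above 1 and 6 held 1. Among them caudal-progenitor-like cluster 12 and notochord-like cluster 27 had no *DLK1* UMI in E19 HSTS, and the median ratio of the other 26 was 0.638, with 19 intervals below 1. Of the 5 clusters with the highest level in E19 HS, nephric-like cluster 13 stood nearest to 1, at 0.862 (0.827 to 0.897). Endothelium-like cells had 0.700 (0.618 to 0.791), gut-endoderm-like cluster 9 had 0.442 (0.381 to 0.511) and mesenchyme-like cluster 0 had 0.387 (0.346 to 0.432). The lowest of the large mesenchyme-like clusters was cluster 2, at 0.123 (0.0846 to 0.174). In E19 HS its 270 *DLK1* UMIs lay in 22 of 508 cells, 75 of them in 1 cell. After thinning, 3.09% (1.74 to 5.04) of its cells were positive in E19 HS and 2.02% (0.971 to 3.68) in E19 HSTS, with overlapping intervals. The unnamed clusters 29 and 26 had 0.350 (0.291 to 0.421) and 0.310 (0.219 to 0.430). *SIX6* cells had 0.749 (0.693 to 0.808), and E19 HS held more of them. Since *SIX6* was picked for its excess in *DLK1*-rich cells, the ratios without such cells shift by that choice. Without the *SIX6* cells cluster 2 had 0.243 (0.164 to 0.352). All neural-progenitor-like cells then had 0.906 (0.809 to 1.01) in place of 0.704 (0.656 to 0.756). Neural-progenitor-like cluster 10 turned from 0.635 (0.564 to 0.714) to 1.61 (1.31 to 1.98). Of the 26 clusters, 16 then had an interval below 1 and 4 above. E19 HSTS was therefore the lower library in most cell groups, and cluster 13 lay closer to 1 than the sum of all kept cells.

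Erythroid-like cells took a larger part of the E19 HSTS library, and they add UMIs but almost no *DLK1*. Without them the levels were 189 CPM in E19 HS and 139.6 in E19 HSTS, a ratio of 0.740 (0.719 to 0.761). With the classes at equal shares it was 0.668, over 19 classes. Without the nephric-like class it was 0.397 (0.380 to 0.414), from 84.1 and 33.4 CPM, and without both classes 0.510 (0.488 to 0.533). E19 HSTS stayed below E19 HS in each of these, with intervals clear of 1 where one was computed.

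**Figure D4:**
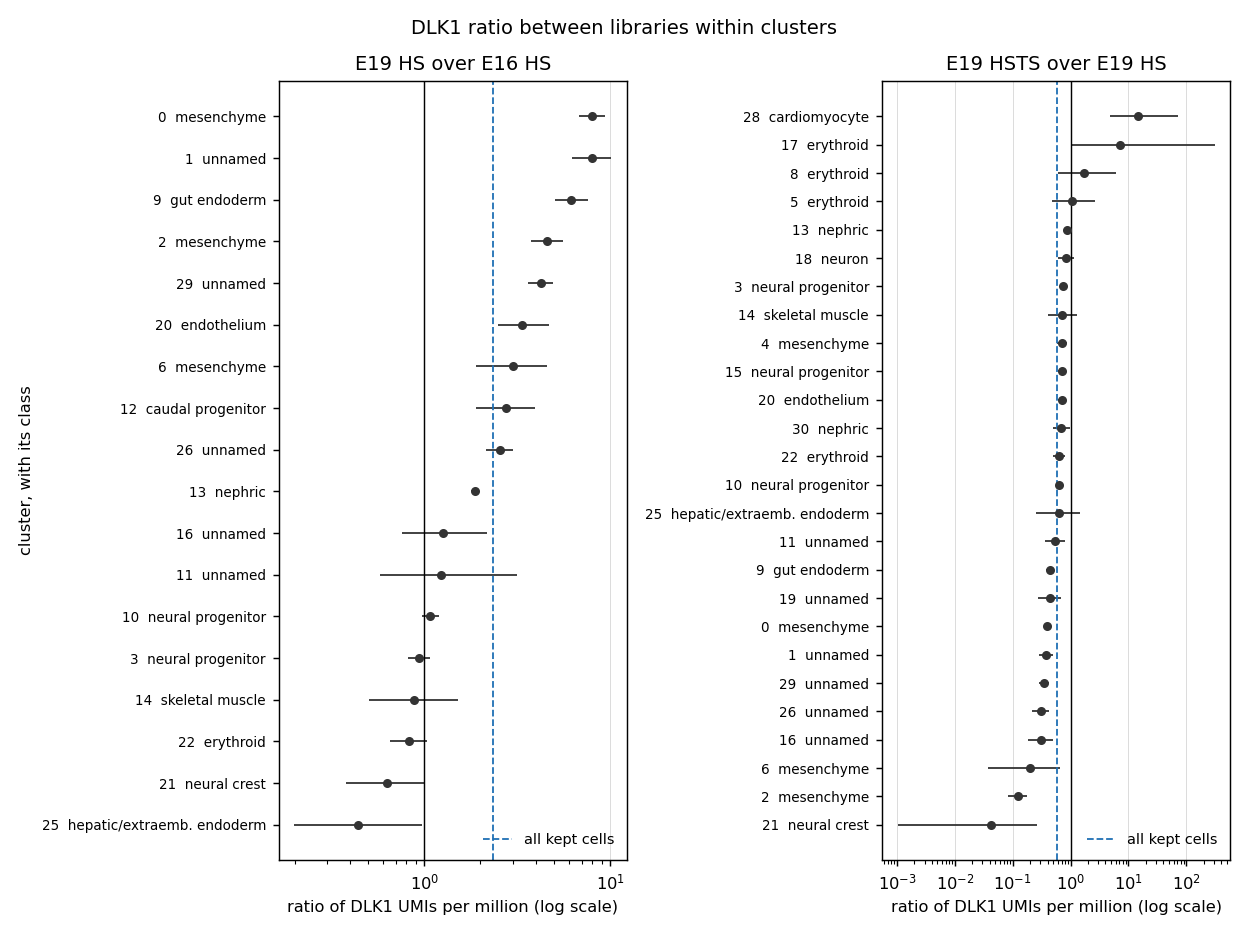
Ratio of DLK1 CPM between libraries in each cluster, on log axes with exact 95% intervals, for E19 HS over E16 HS (left) and E19 HSTS over E19 HS (right). The solid line marks 1 and the dashed line the ratio over all kept cells, 2.34 and 0.573, and clusters in which 1 library of a pair had no DLK1 UMI are left out.

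The parts add up to the library levels as follows. Of the 58.1 CPM of E16 HS, nephric-like cells gave 30.1, neural-progenitor-like cells 9.26, mesenchyme-like cells 5.46 and endothelium-like cells 0.397. Of the 136 CPM of E19 HS, they gave 56.4, 26.2, 20.9 and 8.76. Of the 77.9 CPM of E19 HSTS, they gave 46.3, 11.7, 6.08 and 3.91. Nephric-like cells were the largest part in all 3 libraries, and the parts that were lower in E19 HSTS than in E19 HS by the most were those of the mesenchyme-like and neural-progenitor-like cells. Within the neural-progenitor-like part, *SIX6* cells gave 17.4 CPM in E19 HS and 6.60 in E19 HSTS. The neural-progenitor-like cells without *SIX6* gave 8.81 and 5.11.

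**Figure D5:**
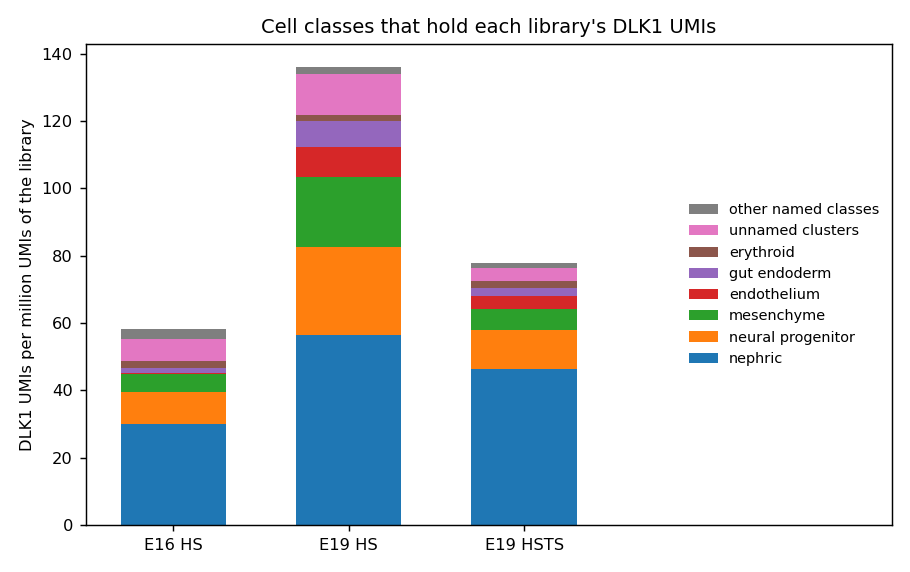
Stacked bars of the DLK1 level of each library (DLK1 CPM of the library, from 0) by the cell class that held the UMIs. Bars reach 58.1 CPM in E16 HS, 136 in E19 HS and 77.9 in E19 HSTS, with nephric-like cells as the largest part of each at 30.1, 56.4 and 46.3 CPM.

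Some other genes of the same domain were not analysed here, *MEG3* and *DIO3* among them. *YY1* and *WARS1* were counted with 13838 and 509 UMIs in E16 HS, and the other measured members were sparse. Of 5 measured members of the domain list, 3 had enough UMIs for the stage ratio and none was past 2-fold in either direction, with a median of 0.890. These were *BEGAIN* (0.560), *YY1* (0.890) and *WARS1* (0.922). *RTL1*, a retrotransposon-derived gene that is imprinted in the same direction as *DLK1*, had 8 UMIs in E16 HS, 33 in E19 HS and 24 in E19 HSTS. Its stage ratio, from too few UMIs to enter that count, was 5.26 (2.38 to 13.2), and its breed ratio was 0.648 (0.367 to 1.13). Its level in the nephric-like class over that in other cells was 13.5 (2.09 to 69.3), 3.25 (0.979 to 8.51) and 7.59 (2.66 to 19.3), from 3, 5 and 7 UMIs in that class. The intervals of the first and the third lay above 1.

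Of 16 imprinted growth genes compared, none was at least 2-fold higher in E19 HS than in E16 HS and 2 were at least 2-fold lower, *MEST* at 0.484 and *DCN* at 0.277, with a median of 0.807. Of all 12580 genes compared by stage, 6.96% were at least 2-fold lower in E19 HS, beside the 6.38% that were higher. None of the 16 was past 2-fold by breed, with a median of 0.865. Several were higher in the nephric-like class, where *DLK1* was highest. *CDKN1C*, an inhibitor of the cell cycle, was 5.77, 4.50 and 4.84 times the level of other cells in E16 HS, E19 HS and E19 HSTS. *IGF2*, a fetal growth factor, was 2.57, 3.80 and 5.12 times and its clearance receptor *IGF2R* 1.88, 5.30 and 5.24 times. *PHLDA2*, a gene known for limiting placental growth, was 20.2, 93.2 and 94.5 times, from 26, 41 and 41 UMIs in the class. *GRB10*, an adaptor that restrains insulin signalling, was lower in it, at 0.647, 0.526 and 0.431 times, and so was *DCN*, at 0.021, 0.042 and 0.038 times.

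Among NOTCH ligands and *DLK2*, the closest relative of *DLK1*, 3 of 5 compared were at least 2-fold lower in E19 HS than in E16 HS and none higher, where the share of all genes was 6.96% lower and 6.38% higher. These were *DLL1* (0.383), *DLL3* (0.436) and *DLK2* (0.469), so *DLK1* and *DLK2* went opposite ways by stage. None of 6 was past 2-fold by breed, where *DLK2* had 1.43 (1.14 to 1.81). These ratios are over whole libraries and not at equal class shares. *DLL1* and *DLL3* were among the leading genes of the caudal-progenitor-like cells, which were 9.67% of the cells of E16 HS and 1.07% of E19 HS. The 4 NOTCH receptors were within 2-fold in both comparisons, with medians of 1.02 and 0.913. Of the NOTCH targets and modifiers, *HES5* (3.37) and *LFNG* (2.04), a target and a glycosyltransferase that acts on the receptors, were at least 2-fold higher in E19 HS among 9 compared, against 6.38% of all genes, and none of 10 was past 2-fold by breed. In the nephric-like class *JAG1*, a NOTCH ligand, was 6.75, 5.69 and 6.96 times the level of other cells, *NOTCH2* 3.24, 3.45 and 2.53 times and *HEY1*, a NOTCH target, 2.52, 2.44 and 2.63 times. *DLK2* was not higher there, at 0.894, 0.147 and 0.666 times.

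Genes of processing and partners were mixed. *ADAM17*, the sheddase, was even across stages and breeds, at 0.873 and 1.06, and was 1.01, 1.15 and 1.73 times as high in nephric-like as in other cells. *FN1*, encoding fibronectin, which binds DLK1, was lower in nephric-like cells, at 0.176, 0.140 and 0.254 times. Among 8 compared by stage, *IGFBP1* (23.0), from few UMIs, and *CEBPB* (4.28) were at least 2-fold higher in E19 HS and *PPARG*, the regulator of adipocytes, at least 2-fold lower (0.098). Among 7 compared by breed, *IGFBP1* was at least 2-fold lower in E19 HSTS (0.198). Over all lists, 4 of 45 genes were at least 2-fold higher and 6 at least 2-fold lower by stage, and 0 and 1 of 46 by breed. Over all genes, 6.38% were higher and 6.96% lower by stage, and 1.53% higher and 2.28% lower by breed.

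The genes whose level followed *DLK1* most closely were sought over 74 profiles, each a cluster in a library with at least 50 cells, among 7543 genes. The profiles share libraries and depth, so the correlation is a description. The highest Spearman correlations were those of *UPP1* (0.63), *NUBP1* (0.62), *PROCA1* (0.62), *ABRACL* (0.61), *JAG1* (0.61), *ARF5* (0.61), *FUOM* (0.61), *DCTN3* (0.61), *DEPDC7* (0.60) and *EPCAM* (0.60). The lowest were those of *RPIA* (-0.43), *FHL2* (-0.43), *TMOD1* (-0.42), *BLVRA* (-0.42) and *ARID3A* (-0.41). In all, 99 genes had a correlation above 0.5. UPP1 is a uridine phosphorylase, EPCAM an epithelial adhesion protein, ARF5 a small GTPase of vesicle traffic and DCTN3 a subunit of dynactin. The list depended on the profiles used: of its 10 genes, 0 were among the first 10 in E16 HS alone, 1 in E19 HS alone and 1 in E19 HSTS alone. *JAG1* was the only gene of the NOTCH lists among the first 10.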

How the data were processed

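The authors aligned the reads with Cell Ranger 6.1.2 and deposited raw UMI counts per gene and cell, which were checked to be whole numbers, and they analysed them further in R 4.1.2 with Seurat 4.1.1. A cell was kept if it had from 200 to 6000 genes and from 1000 to 30000 UMIs, of which mitochondrial genes gave no more than 10%. Levels are UMIs per 1000000 UMIs (CPM) with exact Poisson intervals, ratios have exact conditional intervals and shares exact Clopper-Pearson intervals, at the 95% level. PCR copies are collapsed by the UMIs, and the intervals cover counting error only. Kept totals were 113213654 UMIs in E16 HS, 88733467 in E19 HS and 99580051 in E19 HSTS. For a group of cells without a *DLK1* UMI the upper end of the interval is given. A cluster with none in 1 of a pair of libraries was counted by the bound of its ratio and left out of median ratios.

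The 3 libraries were clustered together in R 4.3.3 with Seurat 5.3.0 on 2000 variable genes without *DLK1*, with the mitochondrial share regressed out, 25 components and a resolution of 1.0. There were 17 marker lists, and each cluster was matched to the list with the most markers among its 10 leading genes, and between lists level in this to the one with the higher mean standardised level. It took the name if at least 3 of the list's markers were found in at least 10% of its cells and if either at least 2 markers led it or the mean standardised level was at least 1.0 in a cluster that was not shallow. Names mean resemblance. Doublets were scored with Scrublet in scanpy 1.11.5 and not removed in the values reported. Levels and intervals were computed with scipy 1.17.1, numpy 2.4.6 and pandas 2.3.3 under Python 3.11.15. The steps were tested on simulated data.

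The gene, the lists, the comparisons and the alternatives were chosen with earlier results of these data known. The named genes were *DLK1*, members of the related lists and marker lists, and the 10 genes with the highest and the 5 with the lowest Spearman correlation over profiles of at least 50 cells (of genes that have a symbol and reach 500 UMIs). Leading genes of clusters are given only to describe the clusters. Related genes were compared where the pair of libraries had at least 50 UMIs together. *SIX6* and the other genes of cells with 5 or more *DLK1* UMIs were added after their values were seen. The alternatives were a stricter filter, all barcodes, TMM scaling in edgeR 4.0.16, other cell naming, a resolution of 0.25, RPCA integration, other thinning, and leaving out groups of cells or the top 8% of cells by doublet score. Leaving out the *SIX6* cells, the highest cell of each cluster and library, or erythroid-like cluster 22 was chosen after seeing the data.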

Additional observations from a re-analysis of the deposited data

Results flagged for a closer look

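In 4 clusters the *DLK1* ratio lay on the other side of 1 from the ratio over all kept cells, with an interval clear of 1. Whether these clusters differ from the rest was not tested, since each group has 1 library. By stage, neural-crest-like cluster 21 had a ratio of 0.626 (0.381 to 0.996) in E19 HS over E16 HS, from 24 and 84 UMIs. Of the 24, 21 lay in 1 cell, and the ratio was 0.100 (0.0202 to 0.307) without the highest cell of each library and 0.685 (0.416 to 1.09) with the stricter filter. The hepatic and extraembryonic endoderm-like cluster 25 had 0.437 (0.200 to 0.966), from 16 and 14 UMIs. Of the 16, 12 lay in 1 cell, and the ratio was 0.148 (0.0339 to 0.514) without the highest cells and 0.504 (0.224 to 1.15) with the stricter filter. By breed, erythroid-like cluster 17 had a ratio of 7.19 (1.06 to 308) in E19 HSTS over E19 HS, from 12 UMIs and 1 UMI, and 3.56 (0.432 to 164) without the highest doublet scores. Cardiomyocyte-like cluster 28 had 14.6 (4.74 to 72.7), from 57 and 3 UMIs, and 34 of the 57 lay in 1 cell. With the stricter filter it was 1.34 (0.180 to 10.0), from 3 UMIs each, and without the highest doublet scores 1 and 0 UMIs remained.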

How the results depend on the processing

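No paired analysis was possible because each group has 1 library. None of the alternatives tried turned the direction of the ratios over all kept cells or at equal class shares. Ratios of single classes did turn: the log2 ratio of E19 HS over E16 HS in neural-progenitor-like cells was -0.23, and 0.0930 with RPCA integration and 0.48 for cells with 3 markers. That of E19 HSTS over E19 HS in erythroid-like cells was -0.47, and 0.0468 for cells with 3 markers and 0.41 without the highest doublet scores. Where the reported interval held 1, the breed ratio of cells with 3 markers was 1.49 for neurons and 1.56 for skeletal muscle, on the other side of 1 from 0.829 and 0.719. The log2 ratio of E19 HS over E16 HS was 1.23, and became 1.08 with a stricter filter, 1.14 with all barcodes, 1.44 with TMM scaling, 1.35 without erythroid-like cells, 1.52 with the mean of each cell's CPM and 0.58 for the share of positive cells after thinning. Among alternatives added after seeing the data, it was 1.08 without cells of over 50 *DLK1* UMIs, 1.52 without the nephric-like class, 1.70 without nephric-like and erythroid-like classes and 1.02 without the *SIX6* cells. At equal class shares it was 0.95, and 0.71 or 1.24 with the shares of E19 HS or E16 HS alone and 1.12 over clusters. The log2 ratio of E19 HSTS over E19 HS was -0.80, and became -0.97 with the stricter filter, -0.75 with TMM scaling, -0.43 without erythroid-like cells and -0.48 for the share after thinning. With the added alternatives it was -0.89 without cells of over 50 *DLK1* UMIs, -1.33 without the nephric-like class, -0.97 without nephric-like and erythroid-like classes and -0.65 without the *SIX6* cells. The nephric-like level in E16 HS was 706 CPM, and 589.7 at a resolution of 0.25, 829 for cells with 3 nephric markers and 748 without the highest doublet scores. In E19 HS it was 1081 CPM, and 1026, 842 and, with the stricter filter, 1351. In E19 HSTS it was 899.6 CPM, and 864 at a resolution of 0.25, 809 for cells with 3 markers, 972 with the stricter filter and 946 without the highest doublet scores. Related genes past 2-fold numbered 10 by stage and 18 without a minimum of UMIs, and 1 by breed, 3 without a minimum and 0 with at least 200 UMIs. Of the 10 genes with a pattern like *DLK1*, Pearson correlation shared 5, and profiles of E16 HS, E19 HS or E19 HSTS alone shared 0, 1 and 1. The cause of these shifts was not tested beyond what each setting leaves out. In the other cell groups, 184 levels and shares under an alternative stayed within the counting interval of the reported value and 97 moved outside it. Of the class ratios, 78 stayed within it, 56 moved outside it and 4 turned. Depth limits what can be said of muscle-like, hepatic-like and cardiac cells, which had at most 57 *DLK1* UMIs per library.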
